A study of Mus musculus with 4 samples.

Results

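Insulin and leptin are the hormones through which the liver reads the fed state and the size of the fat stores. The genes described here are 10 that carry these signals in liver, namely Insr, Irs1, Irs2, Pik3r1, Akt1, Akt2, Foxo1, Foxo3, Ppargc1a and Lepr. They were found by gene symbol among the 46603 Ensembl gene identifiers of the count table, and each of the 10 matched 1 identifier. RNA-seq was performed on total liver RNA of 4 male C57BL/6J mice, of which mice 1 and 2 are Control and mice 3 and 4 carry the label HuR hKO. The paper on this study states that its animal experiments used both sexes. All 4 mice carried floxed alleles of HuR (HuR flox/flox), the RNA-binding protein encoded by Elavl1. The HuR hKO mice had received AAV8 with Cre recombinase under the thyroxine-binding globulin promoter (TBGP), which is active in hepatocytes, and the Control mice AAV8-TBGP-GFP. All were fed a Western diet with sugar water (WDSW) for 4 weeks, in which fat gave 42% of the calories, cholesterol was 0.1% of the diet and the drink held 23.1 g/L fructose and 18.9 g/L glucose. The groups were matched for age, which the sources used here do not state. Liver cells other than hepatocytes keep their HuR alleles in this model and are part of the RNA.

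Insulin binds the insulin receptor (Insr), which phosphorylates the adaptor proteins Irs1 and Irs2. The adaptors recruit phosphoinositide 3-kinase through its regulatory subunit (Pik3r1), and the lipid it makes brings the kinases Akt1 and Akt2 into action. Akt in turn keeps the transcription factors Foxo1 and Foxo3 out of the nucleus, and with them the genes of gluconeogenesis, which Foxo1 drives together with the coactivator encoded by Ppargc1a (PGC-1alpha). Leptin acts through a separate receptor (Lepr), which signals through the kinase Jak2 and the transcription factor Stat3. The long form of this receptor is best known from the hypothalamus, while liver makes mainly short and soluble forms.

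Several of these genes are themselves controlled by fasting and feeding, so the promoters of those with the lowest counts are shown, as the 250 bases before the start of the RefSeq transcript (RefSeq, GRCm38.p6), written 5′ to 3′ on the strand of the gene. The adaptor Irs2 and, to a lesser degree, Irs1 are known to be transcribed more when insulin is low. The core of the insulin response element, TGTTTTG, was searched on both strands and was present in 5.56% of the 32851 promoter windows of this length in the RefSeq table. Irs1 (chr1:82291440-82291689, minus strand) held it at positions -111 and -32 from the start, in capitals, and Irs2 (chr8:11008930-11009179, minus strand) at position -37, in capitals.

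Irs1: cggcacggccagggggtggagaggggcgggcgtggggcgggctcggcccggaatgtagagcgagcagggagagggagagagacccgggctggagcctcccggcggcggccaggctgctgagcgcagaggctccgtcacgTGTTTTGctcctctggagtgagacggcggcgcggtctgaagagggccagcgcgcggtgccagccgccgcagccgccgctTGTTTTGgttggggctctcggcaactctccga

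Irs2: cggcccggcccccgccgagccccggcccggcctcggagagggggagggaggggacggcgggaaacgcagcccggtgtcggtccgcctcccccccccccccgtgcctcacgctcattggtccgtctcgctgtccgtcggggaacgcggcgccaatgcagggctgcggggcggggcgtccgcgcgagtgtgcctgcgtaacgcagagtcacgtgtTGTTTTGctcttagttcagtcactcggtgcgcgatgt

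Ppargc1a is induced by glucagon through cyclic AMP, and its promoter (chr5:51567726-51567975, minus strand) is shown for the core of the cyclic AMP response element, TGACGT. This motif was present in 6.47% of the windows, and here its reverse complement is in capitals, starting at position -50. The window before the first start of Lepr (chr4:101717157-101717406, plus strand) is shown because Lepr was the member past the fold threshold of the study. It held none of the motifs searched, which were the 2 above, the FoxO core TGTTTAC (3.17% of the windows) and the STAT site TTCNNNGAA (7.02%).

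Ppargc1a: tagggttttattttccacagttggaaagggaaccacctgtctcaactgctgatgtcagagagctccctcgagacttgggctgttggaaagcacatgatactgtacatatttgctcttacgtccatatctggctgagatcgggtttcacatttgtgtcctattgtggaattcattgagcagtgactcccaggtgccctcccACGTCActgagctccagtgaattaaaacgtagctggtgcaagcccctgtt

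Lepr: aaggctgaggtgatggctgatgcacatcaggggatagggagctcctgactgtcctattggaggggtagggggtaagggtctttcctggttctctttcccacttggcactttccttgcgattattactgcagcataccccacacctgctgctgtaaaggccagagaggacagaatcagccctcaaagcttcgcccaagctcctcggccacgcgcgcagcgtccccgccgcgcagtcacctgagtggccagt

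A promoter sequence was given for 9 of the 10 genes, with 15 start windows in all. The FoxO core was found before the first start of Akt1 at position -161, and the STAT site before the first start of Akt2 at position -160. The insulin response core was found in 3 of the 15 windows, the third being that before the second start of Lepr, all 250 bases of which are annotated as exons of Lepr transcripts. A match is a description of the letters in these windows and not of binding.

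Total counts lay between 13032095 and 13806773 in mice 1 to 3 and reached 19715577 in mouse 4, and a count of 0 allowed a level of at most 0.159 to 0.226 CPM by counting error. CPM, the counts scaled to library size, are given after TMM scaling in edgeR, with the SD of 2 mice. The hepatocyte markers summed to between 68383 and 77904 CPM, and of the 8 markers 4 were fitted on each side of 0. Elavl1 itself, which encodes HuR, was higher in the libraries labelled HuR hKO. Its level was 28.4 and 25.9 CPM in the Control mice and 37.7 and 34.4 CPM in the mice labelled HuR hKO. The fitted log2 fold change was 0.41 ± 0.14 (SE; edgeR quasi-likelihood test, adjusted p = 0.545). It stayed above 0 under all 14 other settings of the processing. It ranged from 0.33 to 0.48 with 1 mouse left out and from 0.40 to 0.72 under the others. The gene counts do not separate deleted from remaining exons. Every direction below therefore follows the labels, and every comparison is of libraries labelled HuR hKO with libraries labelled Control.

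The comparison asks which of these genes differed in liver RNA between mice labelled HuR hKO and Control mice on WDSW. None of the 10 genes passed an adjusted p of 0.05 in the edgeR quasi-likelihood test, a threshold that 3 of 13001 genes tested (0.0231%) passed. Lepr was higher in the libraries labelled HuR hKO by 2.38-fold, and it was the 1 member with an unadjusted p under 0.05, as 7.43% of genes tested had. Lepr was also the 1 member past the threshold of the study, a fold of at least 1.8 with an unadjusted p under 0.05, which 276 genes (2.12%) passed. The fitted log2 fold change was above 0 for 4 members and below 0 for 6, and its median was -0.05 beside 0.00 over all genes tested (with no scaling for library size, where the median of all genes moved to 0.31, all 10 were above 0). With 1 mouse left out the median of the members ranged from -0.033 to 0.014. In 9 of the 10 members the values of the 2 groups overlapped, and in Lepr both mice labelled HuR hKO lay above both Control mice, as in 19.3% of genes tested (18.8% had both below). With 2 mice in each group an exact permutation test of a single value cannot give a two-sided p below 0.333.

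**Figure D1:**
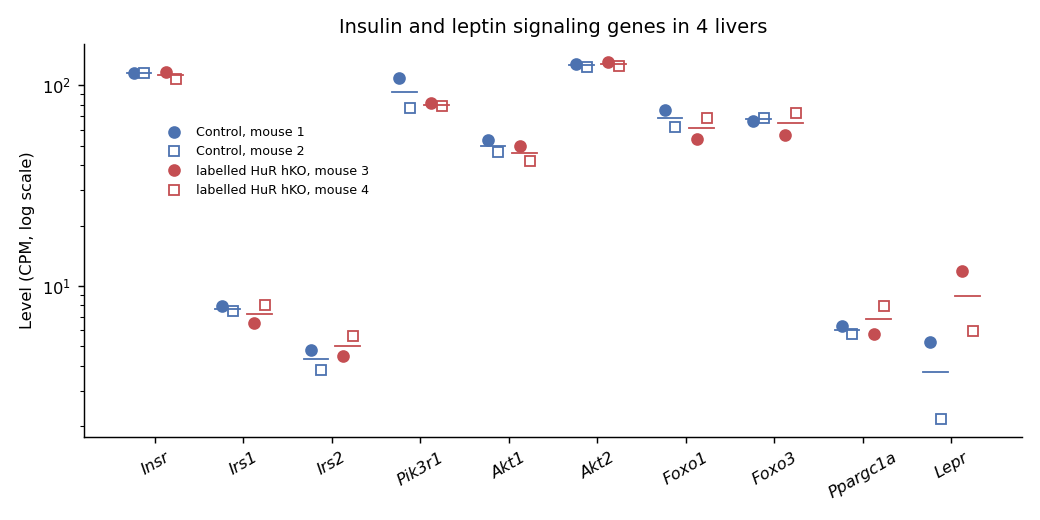
Level of each of the 10 genes in CPM (log axis) in every mouse, in blue for the Control mice and in red for the mice labelled HuR hKO, with a line at the mean of each group. The levels of the 2 groups overlap in every gene but Lepr, whose 2 mice labelled HuR hKO were at 5.95 and 11.9 CPM.

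Insr (chr8:3122061-3279617, minus strand, GRCm38), the receptor tyrosine kinase on which all insulin responses rest, had 1525 and 1549 counts in the Control mice and 1678 and 2036 counts in the mice labelled HuR hKO. These are levels of 115, 116, 117 and 108 CPM in mice 1 to 4. The highest of the 4 mice was 1.08 times the lowest. The group means were 115 ± 0.622 CPM and 113 ± 6.34 CPM, and the log2 fold change was -0.03 ± 0.13 (SE), with a 95% interval of -0.32 to 0.25 (adjusted p = 0.970).

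Irs1 (chr1:82233101-82291416, minus strand) and Irs2 (chr8:10984681-11008458, minus strand), the adaptors of the receptor in liver, were counted far less often. Irs1 was at 7.90 and 7.47 CPM in the Control mice and at 6.56 and 8.02 CPM in the mice labelled HuR hKO, so the mice labelled HuR hKO were both the lowest and the highest. The log2 fold change of Irs1 was -0.07 ± 0.20 (95% interval -0.54 to 0.40, adjusted p = 0.961). Irs2, the adaptor that falls after a meal, was at 4.82 and 3.81 CPM in the Control mice and at 4.46 and 5.63 CPM in the mice labelled HuR hKO. Mouse 3 lay between the Control mice and mouse 4 above them. The log2 fold change of Irs2 was 0.23 ± 0.26, with a 95% interval of -0.37 to 0.83 (adjusted p = 0.878), and it ranged from 0.051 to 0.40 with 1 mouse left out. Irs2 had 0.610 and 0.510 counts for each count of Irs1 in the Control mice and 0.681 and 0.702 in the mice labelled HuR hKO. Of the bases of Irs1 exons, 2822 are shared with the gene Gm9747 on the opposite strand, which had 107 to 160 counts per library. Whether the counting used strand is not given in the sources used here, so the reads of these 2 genes may not have been told apart. The same holds for 162 exonic bases of Irs2 shared with 9530052E02Rik, which had 0 to 4 counts per library, and for 674 of Foxo1 shared with Gm20402, which had 0 counts in every library.

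Pik3r1 (chr13:101680563-101768217, minus strand) encodes p85alpha, the regulatory subunit that links phosphoinositide 3-kinase to the adaptors. Its levels were 109 and 76.7 CPM in the Control mice and 81.4 and 78.6 CPM in the mice labelled HuR hKO. Control mouse 1 stood above the other 3 mice, and the Control mice differed from each other by 1.42-fold. The log2 fold change was -0.21 ± 0.17 (95% interval -0.61 to 0.19, adjusted p = 0.826), and without Control mouse 1 it was 0.048.

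Akt2 (chr7:27591552-27640826, plus strand), the form of Akt that carries most of the metabolic action of insulin, was at 128 and 124 CPM in the Control mice and 131 and 125 CPM in the mice labelled HuR hKO. The mouse with most was 1.06 times the mouse with least, and the log2 fold change was 0.03 ± 0.12 (95% interval -0.26 to 0.31, adjusted p = 0.977). Akt1 (chr12:112653821-112674884, minus strand), the form more tied to growth and survival, was at 53.7 and 46.3 CPM in the Control mice and 49.7 and 42.2 CPM in the mice labelled HuR hKO. The fit gave a log2 fold change of -0.12 ± 0.15 (95% interval -0.46 to 0.21, adjusted p = 0.884). The mice labelled HuR hKO were thus 1 between the Control mice and 1 below them. The counts of Akt2 over those of Akt1 were 2.38 and 2.67 in the Control mice and 2.63 and 2.97 in the mice labelled HuR hKO, so the ranges overlapped.

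Foxo1 (chr3:52268336-52353221, plus strand), the FoxO factor that drives gluconeogenic genes when insulin is low, was at 75.4 and 62.0 CPM in the Control mice and 53.7 and 68.8 CPM in the mice labelled HuR hKO. Foxo3 (chr10:42181841-42276755, minus strand), a second FoxO factor under the control of Akt, was at 66.5 and 68.7 CPM in the Control mice and 56.8 and 72.9 CPM in the mice labelled HuR hKO. Mouse 3 was the lowest of the 4 in both genes. The log2 fold change was -0.16 ± 0.17 for Foxo1 (95% interval -0.55 to 0.22, adjusted p = 0.861) and -0.06 ± 0.15 for Foxo3 (95% interval -0.41 to 0.29, adjusted p = 0.958). Foxo1 had 1.13 and 0.903 counts for each count of Foxo3 in the Control mice and 0.946 and 0.943 in the mice labelled HuR hKO.

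Ppargc1a (chr5:51454250-51567726, minus strand), the coactivator of mitochondrial biogenesis and gluconeogenesis, was at 6.32 and 5.75 CPM in the Control mice and 5.79 and 7.91 CPM in the mice labelled HuR hKO. Mouse 4 stood above the other 3, which lay close together. The log2 fold change was 0.19 ± 0.23, with a 95% interval of -0.35 to 0.73 (adjusted p = 0.888), and without mouse 4 it was -0.059.

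**Figure D2:**
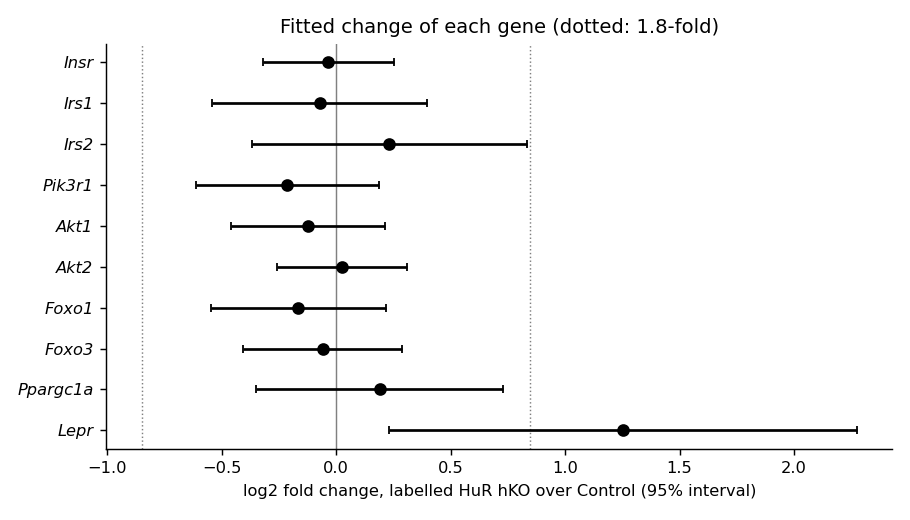
Fitted log2 fold change of each gene, libraries labelled HuR hKO over Control, with its 95% interval from the edgeR quasi-likelihood fit, and dotted lines at 1.8-fold in either direction. The intervals of 9 genes hold 0 and stay within the dotted lines, that of Irs2 reaching 0.83, while the interval of Lepr runs from 0.23 to 2.27.

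The precision differed between the genes. The 95% intervals of 9 members lay within 1.8-fold in either direction, as did those of 8790 genes (67.6%) of all genes tested. The interval was narrowest for Akt2 and Insr. It reached 1.78-fold higher for Irs2, which had 51 to 106 counts per library. A p that misses the threshold does not show that a gene was equal in the groups, and these intervals give the sizes that were compatible with the 4 mice.

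Lepr (chr4:101717404-101815352, plus strand), the leptin receptor, had 70 and 29 counts in the Control mice and 171 and 112 counts in the mice labelled HuR hKO. The levels were 5.27 and 2.17 CPM in the Control mice and 11.9 and 5.95 CPM in the mice labelled HuR hKO, and the highest mouse was 5.51 times the lowest. Control mouse 1 and mouse 4 lay next to each other across the groups. Their exact Poisson 95% intervals, which cover counting error only, were 4.11 to 6.66 CPM and 4.90 to 7.15 CPM and overlapped, while the 2 Control mice differed by 2.43-fold and mice 3 and 4 by 2.01-fold. The group means were 3.72 ± 2.19 CPM and 8.94 ± 4.23 CPM. The log2 fold change was 1.25 ± 0.44, that is 2.38-fold with a 95% interval of 1.17-fold to 4.84-fold (edgeR quasi-likelihood test, unadjusted p = 0.0222, adjusted p = 0.574), and 98.8% of genes tested had an absolute log2 fold change no larger. Without mouse 3 it was 0.66 (unadjusted p = 0.220) and without Control mouse 2 it was 0.75 (unadjusted p = 0.0845), both short of 1.8-fold. Without mouse 4 it was 1.68 and without Control mouse 1 it was 2.02, and with a robust quasi-likelihood fit the unadjusted p was 0.0542. Lepr has 7 annotated transcripts, 4 of them coding, and the counts per gene do not tell the long from the short forms of the receptor.

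Leprot, the gene just upstream on the same strand (chr4:101647718-101659364), ends 58039 bases before the annotated start of Lepr and encodes a protein that limits the amount of leptin receptor at the cell surface. It was at 12.5 and 13.1 CPM in the Control mice and 20.1 and 16.6 CPM in the mice labelled HuR hKO. Both mice labelled HuR hKO lay above both Control mice, and the log2 difference was 0.51 ± 0.16 (unadjusted p = 0.0131, adjusted p = 0.526). With 1 mouse left out the difference in Leprot ranged from 0.36 (without mouse 3) to 0.65 (without mouse 4). The counts of Lepr over those of Leprot were 0.422 and 0.165 in the Control mice and 0.594 and 0.358 in the mice labelled HuR hKO, and these ranges overlapped. In both genes mouse 3 was highest and mouse 4 next, whereas the Control mice came in opposite order.

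**Figure D3:**
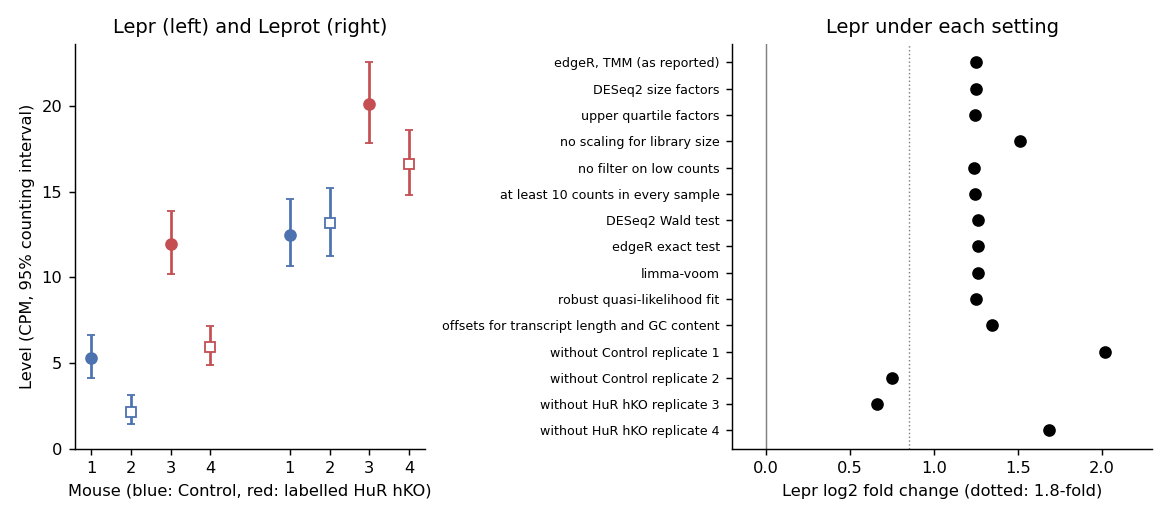
Left, level of Lepr and of Leprot in each mouse (CPM, with exact Poisson 95% intervals that cover counting error only), in blue for Control and in red for the libraries labelled HuR hKO. Right, the log2 fold change of Lepr as reported and under each other setting, with a dotted line at 1.8-fold, which lies above the values without Control mouse 2 (0.75) and without mouse 3 (0.66).

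Lepr is made by several liver cell types, and in bulk RNA more cells of a type and more RNA per cell cannot be told apart. Endothelial cell markers summed to 216 and 184 CPM in the Control mice and 246 and 219 CPM in the mice labelled HuR hKO. The spread of that sum was 1.34-fold from lowest to highest mouse. All 8 endothelial markers were fitted higher in the libraries labelled HuR hKO (median log2 fold change 0.21), and 0 of 8 had an unadjusted p under 0.05 or an adjusted p under 0.05 in the edgeR test. Stellate cell markers summed to 211 and 210 CPM in the Control mice and 230 and 282 CPM in the others, with 7 of 8 fitted higher and 2 with an unadjusted p under 0.05, and Kupffer cell markers to 198 and 205 CPM and to 231 and 217 CPM, with 6 of 8 fitted higher. Erythroid markers were fitted higher in 5 of 5 genes (363 and 450 CPM against 488 and 711 CPM), and 3 of them had an unadjusted p under 0.05. The sums of cholangiocyte markers (27.5 to 52.8 CPM), T and B cell markers (3.16 to 6.50 CPM) and adipocyte markers (34.7 to 47.5 CPM) overlapped between the groups. Of the 4 cholangiocyte markers tested 2 were fitted higher and 2 lower (median -0.23), and 1 had an unadjusted p under 0.05 (Spp1, log2 fold change 0.51 ± 0.19). Control mouse 1 stood above the other mice in Krt19, Krt7 and Epcam, with 162 counts of Krt19 against 5, 7 and 34 in mice 2 to 4. The adipocyte sum came mostly from Cidec (25.5 to 40.2 CPM), while Fabp4, at 8.58 and 7.24 CPM in the Control mice and 10.1 and 16.0 CPM in the mice labelled HuR hKO, was higher with an unadjusted p of 0.0172 (adjusted p = 0.555). The defining fat cell gene Adipoq had 3, 1, 0 and 14 counts in mice 1 to 4, and Plin1, Retn and Lep also had their highest count in mouse 4, at 9, 10 and 6. Neutrophil markers summed to at most 1.49 CPM, with Ly6g at 0 in every mouse. The part of these cells in the Lepr result was not tested.

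Levels of different genes can be compared only per length, here as CPM per kb of the union of annotated exons and as the mean of 4 mice. In this order Akt2 was highest (17.8 CPM per kb, above 84.1% of genes tested), followed by Akt1 (11.7), Foxo3 (8.75), Pik3r1 (8.57), Insr (8.29) and Foxo1 (7.50). The other 4 members lay below 1 CPM per kb, with Ppargc1a at 0.977, Lepr at 0.898, Irs1 at 0.819 and Irs2 at 0.740 CPM per kb, the last above 19.7% of genes tested. Over the 4 mice the values did not overlap between Akt2 and Akt1, between Akt1 and Foxo3 or between Foxo1 and Ppargc1a, while the other 6 pairs of neighbours overlapped. The order of 3 of these 6 depended on the length used. The main coding transcript of a gene is here the one with the longest coding sequence, which need not be the form most made in liver. Per kb of this transcript, Insr (12.2) came above Foxo3 (9.67), and Lepr (1.53) above Ppargc1a (0.997). The place of Lepr also differed between the groups, since its mean was 0.527 CPM per kb of union exons in the Control mice, below Irs1 (0.840) and Irs2 (0.682), and 1.27 in the mice labelled HuR hKO, above Ppargc1a (1.04). The level of the receptor Insr per length was 10.1 times that of its adaptor Irs1 with union exons and 14.9 times with main transcripts.

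HuR binds AU-rich stretches in the untranslated ends of mRNAs, so the annotated 3′ untranslated region of 1 main transcript per gene was searched for the pentamer ATTTA and for the AU-rich nonamer TTATTTATT. The pentamer was found in the main transcripts of 9 of the 10 genes, with 13 copies in Foxo1, 9 in Ppargc1a, 8 in Pik3r1, 7 each in Insr and Irs2, 6 each in Irs1 and Foxo3 and 2 each in Akt1 and Akt2. Irs2 had the highest density, 3.01 per kb, and Akt2 the lowest of the 9, 0.745 per kb, beside a median of 1.24 per kb over 11582 genes tested that have such a region. The regions of these 9 were 877 bases (Akt1) to 6240 bases (Foxo1) long, beside a median of 985 bases. A longer region has more room for copies, so the number of copies is to be read with the length. The main Lepr transcript is the one with the longest coding sequence, and it need not be a form that liver mainly makes. Its annotated region is 83 bases long and held 0 copies. The nonamer was found in the main transcript of 0 of the 10 genes and of 7.04% of the 11582 genes, and that of Elavl1 held 8. The other transcripts, such as the longer ones of Lepr, were not searched. The density of these letters is a description, and no binding was measured here.

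The rest of the pathway was described with 8 lists by role, which hold 135 genes besides the members, 128 of them tested. Of the 128, 3 were higher and 1 lower past the threshold of the study (3.12% beside 2.12% of all genes tested), and 11 were higher and 6 lower with an unadjusted p under 0.05 (13.3% beside 7.43%). Of the 11 higher genes, 6 were in a single list, that of genes induced by insulin in liver. An adjusted p under 0.05 was reached by 0 of the 128 in the edgeR quasi-likelihood test, by 2 in the DESeq2 Wald test and by 2 in the edgeR exact test.

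**Figure D4:**
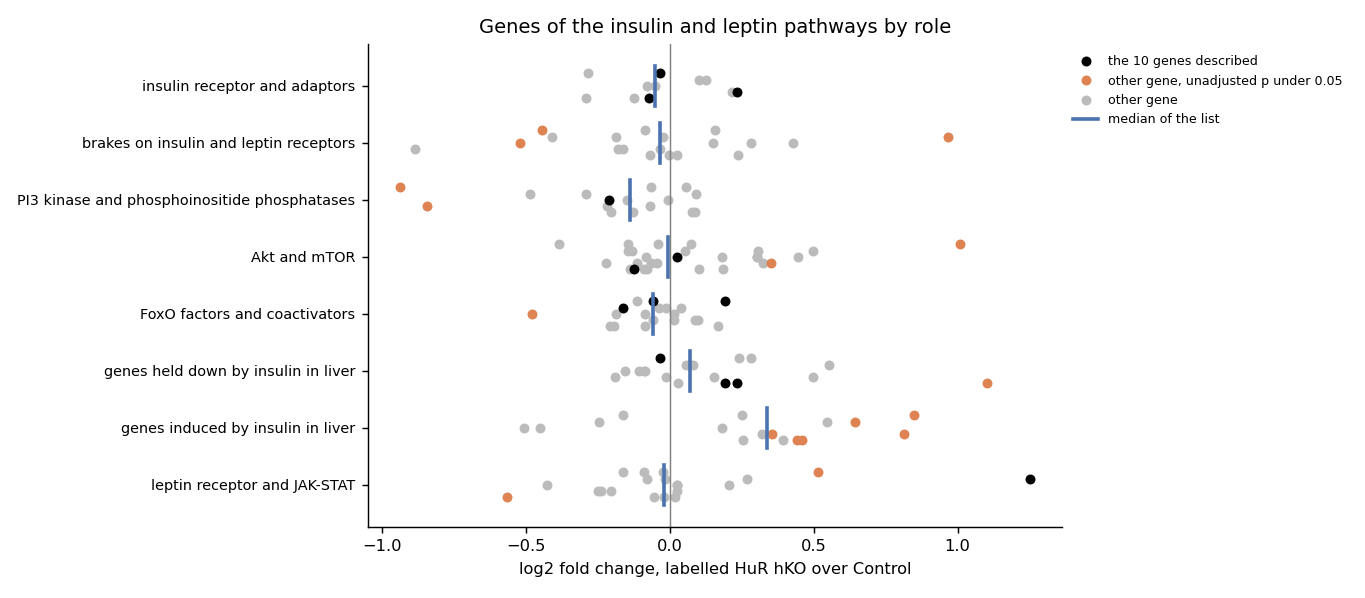
Log2 fold change, libraries labelled HuR hKO over Control, of each gene tested in the 8 lists of the insulin and leptin pathways, with the 10 genes described in black, other genes with an unadjusted p under 0.05 in orange, and a line at the median of each list. The list medians lie between -0.14 (PI3 kinase and phosphatases) and 0.34 (genes induced by insulin), and Lepr lies farthest from 0 at 1.25.

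Among the insulin receptor and its adaptors 4 of 11 genes were fitted higher and 7 lower, 0 with an unadjusted p under 0.05 or an adjusted p under 0.05 in the edgeR test. Igf1r, the receptor for IGF-1, had at most 0.672 CPM and was too low to be tested. In the list of PI3 kinase subunits and phosphoinositide phosphatases 4 of 16 genes were fitted higher and 12 lower, and the median was -0.14 on the log2 scale. An unadjusted p under 0.05 was reached by 2 of them, both lower, which were Pik3r3 and, chosen after its values were seen, the Akt phosphatase Phlpp2 (-0.84 ± 0.27, adjusted p = 0.526). Pik3r3, which encodes the regulatory subunit p55gamma, was lower past the threshold of the study, at 2.26 and 2.54 CPM in the Control mice and 1.40 and 1.11 CPM in the mice labelled HuR hKO (log2 fold change -0.94 ± 0.37, adjusted p = 0.618). It lost that threshold without any 1 of the 4 mice, with log2 fold changes of -1.12 to -0.78. The catalytic subunit Pik3ca (-0.07 ± 0.14, adjusted p = 0.941) and Pdpk1, the kinase that activates Akt (0.06 ± 0.16, adjusted p = 0.961), had overlapping groups.

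In the Akt and mTOR list 14 of 28 genes were fitted higher and 14 lower, and 2 were higher with an unadjusted p under 0.05. These were Ddit4 and, chosen after its values were seen, Eif4ebp1, the translation repressor 4E-BP1 that mTOR complex 1 inactivates (0.35 ± 0.12, adjusted p = 0.574). Eif4ebp1 ranged from 0.31 to 0.38 with 1 mouse left out, and its unadjusted p in the DESeq2 Wald test was 0.0562. Ddit4 (REDD1), a stress-induced inhibitor of mTOR complex 1, was higher past the threshold of the study (log2 fold change 1.01 ± 0.34, adjusted p = 0.548). Its levels were 9.18 and 8.21 CPM in the Control mice and 10.7 and 23.9 CPM in the mice labelled HuR hKO, so mouse 4 stood apart, and without mouse 4 the log2 fold change was 0.31. With no filter on low counts the adjusted p of Ddit4 was 0.0434, and over the 14 alternatives it ran from 0.000477 to 0.999. Mtor, the kinase of both mTOR complexes, differed by -0.08 ± 0.13 (adjusted p = 0.912).

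Among the brakes on the receptors 7 of 19 genes were fitted higher and 12 lower, and 1 was higher and 2 were lower with an unadjusted p under 0.05. The 2 lower genes, chosen after their values were seen, were Mapk8, which encodes the stress kinase JNK1 (-0.52 ± 0.16, adjusted p = 0.510), and Socs6, a member of the SOCS family (-0.44 ± 0.17, adjusted p = 0.611). With 1 mouse left out Mapk8 ranged from -0.64 to -0.41 and Socs6 from -0.58 to -0.30. The unadjusted p of Socs6 in the DESeq2 Wald test was 0.0953. Trib3, a pseudokinase that binds Akt and limits its activation, was higher past the threshold of the study. It was at 4.67 and 5.90 CPM in the Control mice and 8.44 and 12.1 CPM in the mice labelled HuR hKO. The fit gave a log2 fold change of 0.97 ± 0.25 (unadjusted p = 0.00429, adjusted p = 0.381), which fell short of 1.8-fold without Control mouse 1 (0.79) and without mouse 4 (0.68). With no filter on low counts the adjusted p of Trib3 was 0.0419, and over the 14 alternatives it ran from 0.00413 to 0.999. The phosphatase Ptpn1 (0.02 ± 0.15, adjusted p = 0.982), the cytokine-induced inhibitor Socs3 (-0.02 ± 0.31, adjusted p = 0.992) and the adaptor Grb14 (-0.09 ± 0.13, adjusted p = 0.909), all of which dampen the receptor, had overlapping groups. Grb10 was lower in both mice labelled HuR hKO, at 2.58 and 2.71 CPM against 3.69 and 3.36 CPM (-0.41 ± 0.28, adjusted p = 0.780).

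Of the FoxO factors and coactivators 7 of 19 genes were fitted higher and 12 lower (median -0.06). An unadjusted p under 0.05 was reached by 1, the forkhead factor Foxk2 (-0.48 ± 0.17, adjusted p = 0.577), chosen after its values were seen. Foxk2 ranged from -0.68 to -0.31 with 1 mouse left out, and its unadjusted p in the DESeq2 Wald test was 0.0557. Foxo4, the third FoxO factor tested, differed by -0.09 ± 0.14 (adjusted p = 0.913), and Ppargc1b, the relative of Ppargc1a linked to lipogenesis, by 0.17 ± 0.23 (adjusted p = 0.903). Genes that insulin holds down in liver include targets of these factors, and the list of them also holds the members Insr, Irs2 and Ppargc1a. Of 18 such genes 11 were fitted higher and 7 lower (median 0.07, from -0.059 to 0.20 with 1 mouse left out). Among them Pck1, which commits oxaloacetate to gluconeogenesis, was at 2174 and 2519 CPM in the Control mice and 1909 and 2970 CPM in the mice labelled HuR hKO (0.06 ± 0.23, adjusted p = 0.971). G6pc, which releases free glucose, was at 199 and 367 CPM in the Control mice and 215 and 281 CPM in the others (-0.19 ± 0.27, adjusted p = 0.906). In these 2 genes the groups overlapped. Igfbp1, a secreted binding protein and a sensitive FoxO target, was at 22.7 and 24.4 CPM in the Control mice and 24.4 and 44.5 CPM in the mice labelled HuR hKO (0.55 ± 0.25, adjusted p = 0.674), with mouse 4 apart from the rest. The log2 fold change of Igfbp1 was 0.052 without mouse 4 and 0.90 without mouse 3. Fgf21, a hormone the liver secretes in fasting and under nutrient stress, was higher past the threshold of the study, at 0.978 and 1.79 CPM in the Control mice and 3.28 and 2.71 CPM in the mice labelled HuR hKO (1.10 ± 0.40, adjusted p = 0.574). It was not past that threshold without Control mouse 1 (0.72), without mouse 3 (0.95) or without mouse 4 (1.24).

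Genes that insulin induces in liver had the highest list median, 0.34, with 12 of 16 fitted higher and 4 lower. An unadjusted p under 0.05 was reached by 6 of the 16, all higher, and by 7.43% of all genes tested. The list was written with earlier results of these data known, so these shares are a description and not a test. The lowest adjusted p in the list was 0.103. The gene with this adjusted p was Acly, which makes the acetyl-CoA for fatty acid synthesis, at 153 and 155 CPM in the Control mice and 264 and 277 CPM in the mice labelled HuR hKO (log2 fold change 0.81 ± 0.13). Acly did reach an adjusted p under 0.05 in the DESeq2 Wald test (adjusted p = 0.000139), in the edgeR exact test (adjusted p = 0.000523) and with no filter on low counts (adjusted p = 0.00425), and over the 14 alternatives its adjusted p ran up to 0.546. Pklr, the pyruvate kinase of liver (0.44 ± 0.15, adjusted p = 0.548), and Gpam, which starts triglyceride synthesis (0.35 ± 0.14, adjusted p = 0.633), were also among the 6, and these 3 genes were chosen after their values were seen. With 1 mouse left out Pklr ranged from 0.31 to 0.55 and Gpam from 0.21 to 0.50, and each kept an unadjusted p under 0.05 in 1 of the 4 fits. Srebf1, the transcription factor through which insulin turns on lipogenesis, was at 716 and 676 CPM in the Control mice and 732 and 922 CPM in the others (0.25 ± 0.16, adjusted p = 0.772, and 0.074 without mouse 4).

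In the leptin receptor and JAK-STAT list 8 of 20 genes were fitted higher and 12 lower (median -0.02), and 3 had an unadjusted p under 0.05, of which Lepr and Leprot were higher and 1 gene was lower. The lowest adjusted p in the list, 0.440, was that of neither Lepr nor Leprot. Jak2, the kinase bound to the receptor, was at 17.1 and 14.9 CPM in the Control mice and 14.2 and 13.6 CPM in the mice labelled HuR hKO (-0.20 ± 0.16, adjusted p = 0.818). Stat3, the factor it activates, was at 70.2 and 60.8 CPM in the Control mice and 65.2 and 68.0 CPM in the others (0.02 ± 0.13, adjusted p = 0.981). Lep, which encodes leptin and is made by fat cells, had 0 to 6 counts per library and was not tested.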

How the data were processed

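RNA-seq was performed on total liver RNA of 4 mice, 2 per group, and groups were taken from the sample titles. The mice are separate animals. The authors deposited whole-number counts per Ensembl gene, without normalization. The submitters' processing notes name RSEM and GRCm38 without saying for what, and the aligner and the use of strand are not given in the sources used here. Every column of the count table was matched to a mouse, and 0 columns of per-sample values were left out.

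Symbols were found for 46005 of 46603 identifiers. Coordinates and exon lengths came from the GENCODE annotation of GRCm38, and promoters from RefSeq. Genes were kept by the edgeR filter (minimum count 10, total 15), scaled by TMM and compared with the quasi-likelihood test of edgeR 4.0.16 (R 4.3.3), with Benjamini-Hochberg adjustment over 13001 genes. The fit was tested on simulated data, and the outcome is not given here. The study's threshold of 1.8-fold with an unadjusted p under 0.05 was also counted. CPM use TMM-scaled library sizes, and a fold change is of normalized counts. Pairs of libraries of the same group differed by more than sampling noise. Alternatives were other scalings, filters and tests (DESeq2 1.42.0, limma 3.58.1), offsets for length and GC content, and leaving out each mouse. Figures were drawn with matplotlib 3.10.9.

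Named genes were the 10 members, Elavl1, pathway genes fixed by symbol (a few of these are not reported here), and pathway genes past the study threshold or an adjusted p of 0.05. Genes said to be chosen after their values were seen were added from those with an unadjusted p under 0.05. The members and lists were chosen with earlier results of these data known. An interval or limit of counts covers counting error only.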

Additional observations from a re-analysis of the deposited data

How the results depend on the processing

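Across 14 other settings, 127 of 140 log2 fold changes of the 10 members kept their direction and 13 reversed, and 1 reached an adjusted p under 0.05. Lepr stayed higher in all 14, between 1.24 and 1.51 where no mouse was left out and between 0.66 and 2.02 where one was, with adjusted p from 0.00103 to 0.847. Lepr was past the study threshold in the fit reported, but 0 members were past it with the robust quasi-likelihood fit, without Control mouse 2 and without mouse 3, so the range over mice left out was 0 to 1.

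With no scaling for library size the median of all genes was 0.31, and values are to be read against that shift. Lepr was then 1.51 with an adjusted p of 0.00103, 1 member was called at an adjusted p under 0.05, the median of the members was 0.28, and 3 pathway genes, counted here and below with the members among them, and 155 of all genes were called, with 8 and 571 past the study threshold. The 3 were Lepr, Trib3 and Ddit4. The following were then above 0, reversed from the fit reported: Insr 0.27, Irs1 0.26, Grb14 0.23, Socs3 0.26, Pik3r1 0.10, Pik3ca 0.23, Akt1 0.18, Mtor 0.23, Foxo1 0.17, Foxo3 0.28, Foxo4 0.22, G6pc 0.15 and Jak2 0.11. Offsets for transcript length and GC content gave 0.030 for Insr and 0.031 for Pik3ca. With no filter on low counts 4 pathway genes and 161 of all genes were called, and 526 genes were past the study threshold. The DESeq2 Wald test called 2 pathway genes and 85 of all genes, with 3 pathway genes past the study threshold (5 in the fit reported), Lepr among them in both. The edgeR exact test called 2 pathway genes and 120 of all genes, and the robust fit called 8 of all genes. The cause of these differences was not tested.

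With 1 mouse left out, the mouse alone in its group was assumed to vary like the other group. The range over the 4 mice left out was -0.11 to 0.024 for Insr, -0.23 to 0.044 for Irs1, 0.051 to 0.40 for Irs2, -0.44 to 0.048 for Pik3r1, -0.26 to -0.0078 for Akt1, -0.025 to 0.059 for Akt2, -0.35 to -0.015 for Foxo1, -0.25 to 0.093 for Foxo3 and -0.059 to 0.37 for Ppargc1a. It was -0.12 to 0.15 for Ptpn1, -0.34 to 0.24 for Socs3, -0.20 to 0.045 for Pik3ca, -0.088 to 0.21 for Pdpk1, -0.30 to 0.32 for Pck1, -0.58 to 0.32 for G6pc and -0.075 to 0.12 for Stat3. Between 0 and 1 pathway genes and between 0 and 73 of all genes were called, and between 262 and 506 genes were past the study threshold.

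No paired analysis was possible because the mice are numbered 1 and 2 in one group and 3 and 4 in the other and share no number. The 2 mice per group and the 29 to 171 counts per library limit what can be said of Lepr.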
